A study of Bos taurus with 16 samples.

Results

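The 46 genes described here code for the ErbB receptors and their ligands, the adaptors and kinases that carry their signal to ERK, the stress-activated MAP kinases, the phosphatases and Sprouty proteins that restrain the pathway, and transcription factors at its end. They were taken from a list of gene names, which was drawn up with earlier results of these data known. All 46 were found by name among 38959 genes in the first blastocyst table and among 37429 in the second. The bESC table holds 28303 genes, in which 45 of the names were found and EGF was not. NRG1 appears there as 2 gene models, so that the bESC table has 46 rows for the list.

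ErbB receptors bind EGF-family ligands, pair with each other and recruit the adaptors GRB2 and SHC1, which bring the exchange factors SOS1 and SOS2 to RAS. RAS proteins then activate RAF, MEK (MAP2K1 and MAP2K2) and ERK kinases in turn, and ERK raises transcription of FOS, EGR1, MYC, ETV4 and ETV5. The same activity raises DUSP5, DUSP6 and the Sprouty genes, whose proteins restrain the pathway, so their transcripts are widely read as its output. In the mammalian blastocyst FGF and ERK signalling is known for its part in separating hypoblast from epiblast.

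LY2955303 (LY) inhibits the retinoic acid receptor gamma. In the first experiment, 3 single in vitro-fertilised bovine blastocysts grown with 10 μM LY (LY10) were set beside 3 grown with the solvent DMSO. In the second, 2 blastocysts had LY from the 2-cell stage (cell2_LY), 2 from the 16-cell stage (cell16_LY) and 2 had DMSO (LY_DMSO). The labels give no concentration of LY for this experiment, and by the study's account the LY10 embryos, too, were exposed from the 2-cell stage. In the third, bovine embryonic stem cells (bESCs) were grown with LY (bESC_LY, 2 libraries) or in the TIFX medium alone as the labels have it (bESC_tifx, 2 libraries), whereas the study speaks of a DMSO control. All samples are labelled as wild type and as batch 1. According to the methods, the embryo medium of treated and control groups held LIF, FGF2 and IGF1, and FGF2 is itself an activator of ERK. The TIFX medium holds PD184352, a MEK1/2 inhibitor, and SU5402, an FGF receptor inhibitor, and the bESCs grow on mouse fibroblast feeder cells. Each blastocyst library is 1 embryo with its trophectoderm, epiblast and hypoblast together, so that a change in the number of cells of a type and a change in RNA per cell cannot be told apart. Nothing in the labels says that the bESC libraries came from separate cultures, and their p-values measure only the spread between these libraries.

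Depth was 7905768 to 15137567 reads on genes in the first experiment, 11336091 to 17343140 in the second and 29055323 to 31230432 in the bESCs. Trophectoderm markers summed to between 2500 and 9484 FPKM (fragments per length of gene and depth of library) in every blastocyst and epiblast markers to 1874 FPKM or more in every bESC library, in which DPPA4 was not found by name. SOX17, a hypoblast marker, was at 0 reads in 8 of the 12 blastocysts. The library DMSO replicate 3 stood apart, with Spearman coefficients of 0.883 and 0.844 with the other DMSO blastocysts over tested genes, while pairs within LY10 gave 0.941 to 0.955. In cell2_LY replicate 1, the library size behind the FPKM was 1.23 times the reads on genes, against 0.949 to 1.07 times elsewhere. Counts of called members that rest on these libraries are given with and without them, and other counts only with them.

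Transcripts from every step of the pathway were measured in blastocysts, and most of the ligand transcript came from 1 gene. Over the 12 blastocysts, the RAS gene NRAS had the highest median level of the 46, 42.6 FPKM, and ranged from 33.0 to 70.4 FPKM. Next came the phosphatase DUSP1 (median 30.8 FPKM), the ligand HBEGF (26.8 FPKM), the adaptor GRB2 (24.3 FPKM) and the kinase MAP2K1 (18.5 FPKM). HBEGF, a membrane-anchored ligand of EGFR and ERBB4, made up 64.7% to 96.9% of the summed FPKM of the 7 ligands in each blastocyst. Among the 4 receptors, ERBB3, which pairs with ERBB2 because its own kinase is weak, had the highest median, 5.07 FPKM, with ERBB2 at 2.04 and EGFR at 0.88 FPKM. ERBB3 made up 23.4% of receptor FPKM in DMSO replicate 2 and 46.3% to 77.9% in the other 11 blastocysts. ERBB4 reached 12 reads in its highest library and had 0 reads in 5 of the 12, and AREG, BTC and EGF were also too low to test in blastocysts. DUSP4, a nuclear phosphatase of ERK, had 3 reads in 1 of the 12 blastocysts and none in the other 11.

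Some members hardly varied and others spread widely between embryos. MAPK9 (a JNK), GRB2 and BRAF differed by 1.38, 1.52 and 1.57 times between their highest and lowest blastocyst. Among the ERK-responsive genes the ranges were 5.11 times for SPRY2, 5.54 for FOS, 7.30 for EGR1, 9.34 for ETV5, 14.2 for SPRY1, 16.5 for MYC, 17.0 for DUSP6, 18.2 for DUSP5, 24.7 for ETV4 and 245 for SPRY4, whose lowest value, 0.0167 FPKM in DMSO replicate 2, rests on few reads. Wide ranges were also found elsewhere in the pathway, with 103 times for MAPK3 and 45.4 times for NRG1. Their lowest values rest on 1 read for MAPK3 (DMSO replicate 2) and 5 reads for NRG1 (cell2_LY replicate 1). In DMSO replicate 3, several of the ERK-responsive genes stood above both other DMSO blastocysts. DUSP6 was at 22.6 FPKM there against 6.56 and 4.71, SPRY1 at 1.55 against 0.166 and 0.292, and SPRY4 at 2.60 against 0.562 and 0.0167. Others did not, and ETV4 (0.318 FPKM against 0.370 and 1.05) and EGR1 (1.53 FPKM against 2.37 and 1.74) were at their lowest DMSO level in that library, while ETV5 (0.948 FPKM) lay between the other two.

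LY10 blastocysts had less DUSP5 and TGFA and more HRAS and ARAF transcript than DMSO blastocysts, while the receptors, the MEK genes and the transcription factors gave no call. The limma test ran on log2(normalized count + 1), and a gene was called when its unadjusted p was below 0.05 and its log2 fold change beyond 1 in either direction. These limits follow the paper. Of the 41 members tested, 2 were called higher and 2 lower, 4.88% in each direction. Of all 14249 genes tested, 6.2% were called higher and 8.51% lower. The members' shares, which rest on 2 genes in each direction, were thus not above the background. No member passed a Benjamini-Hochberg adjusted p of 0.05 over all genes, which 0.014% of genes did, and 4 members had an unadjusted p under 0.05. The groups did not overlap for 6 members (3 higher and 3 lower), or 14.6%, against 28.1% of all genes. The median log2 fold change was 0.09 over the members and -0.05 over all genes. After quantile normalization, 45.01% of all calls were lower in place of 57.8%.

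DUSP5, a nuclear phosphatase that binds and inactivates ERK, lies on chromosome 26 from 31063686 to 31076459. Positions are those of the blastocyst tables, and they were the same as in RefSeq's ARS-UCD2.0 annotation for all 92 member entries. Its level was 11.2, 15.6 and 16.5 FPKM in the DMSO blastocysts and 1.01, 3.501 and 4.44 FPKM in the LY10 blastocysts. Every LY10 embryo lay below every DMSO embryo, and the means were 2.98 ± 1.77 and 14.4 ± 2.83 FPKM (SD, n = 3 each). This was 5.59-fold lower, a log2 fold change of -2.48 ± 0.53 (SE), and limma's adjusted p was 0.0783, the smallest of the 41 members. Of the 4 phosphatases' summed FPKM, DUSP5 made up 17.9% to 30.6% in DMSO and 3.8% to 10.7% in LY10. DUSP6, a cytoplasmic ERK phosphatase, was at 6.14 to 9.35 FPKM in LY10 and at 4.71 to 22.6 FPKM in DMSO, and DUSP1 overlapped as well.

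ARAF, a RAF kinase on chromosome X (85918891 to 85929325), was at 10.1, 4.43 and 5.18 FPKM in DMSO and at 11.5, 18.8 and 15.5 FPKM in LY10. HRAS (chromosome 29, 50762262 to 50765201) was at 3.37, 6.76 and 5.82 FPKM in DMSO and at 18.3, 9.27 and 11.02 FPKM in LY10. For both genes all 3 LY10 blastocysts were above all 3 DMSO blastocysts. The log2 fold change of ARAF was 1.28 ± 0.37 (SE; limma's adjusted p = 0.107). That of HRAS was 1.26 ± 0.42 (SE; limma's adjusted p = 0.131), and it fell to 0.97 and 0.98, below the threshold, without DMSO replicate 1 or without LY10 replicate 1. The other RAF gene, BRAF, was at 1.79 to 1.96 FPKM in DMSO and at 1.37 to 1.62 FPKM in LY10, so that the groups did not overlap in the opposite direction, but its log2 fold change of -0.32 was not called. ARAF thus made up 69.4% to 84.6% of the RAF transcripts measured here in DMSO and 87.6% to 92.6% in LY10. NRAS overlapped between the groups, with a log2 fold change of 0.04.

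TGFA, a soluble EGFR ligand, was at 1.75, 3.26 and 1.14 FPKM in DMSO and at 0.490, 1.38 and 0.491 FPKM in LY10. The groups overlapped, since LY10 replicate 2 lay above DMSO replicate 3. The log2 fold change was -1.40 ± 0.57 (SE; limma's adjusted p = 0.193), and the call was lost in 8 of 16 alternatives. Leaving out DMSO replicate 1 (-1.45), DMSO replicate 2 (-1.002), LY10 replicate 1 (-1.16) or LY10 replicate 3 (-1.16) ended it because the unadjusted p was no longer under 0.05, while the fold change stayed beyond the threshold. EREG, another ligand, was at 0.430 to 0.586 FPKM in DMSO and at 0.0765 to 0.363 FPKM in LY10, without a call (log2 fold change -1.27). Without DMSO replicate 3, 6 members were called in place of 4, with HBEGF and SPRY4 added as higher in LY10. The calls over all genes rose there from 14.7% to 24.2%, and 1963 genes then passed the adjusted threshold. DUSP5 was the 1 member among them, with an adjusted p in limma of 0.0423, the lowest of 0.0423 to 0.210 over the alternatives. Without DMSO replicate 1 the count was 2, ARAF and DUSP5. Epiblast markers summed to 183 to 275 FPKM in DMSO and 376 to 745 FPKM in LY10, and fibroblast markers to 10.4 to 22.5 and 3.89 to 6.15 FPKM. The part of these differences in the calls was not tested.

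**Figure D1:**
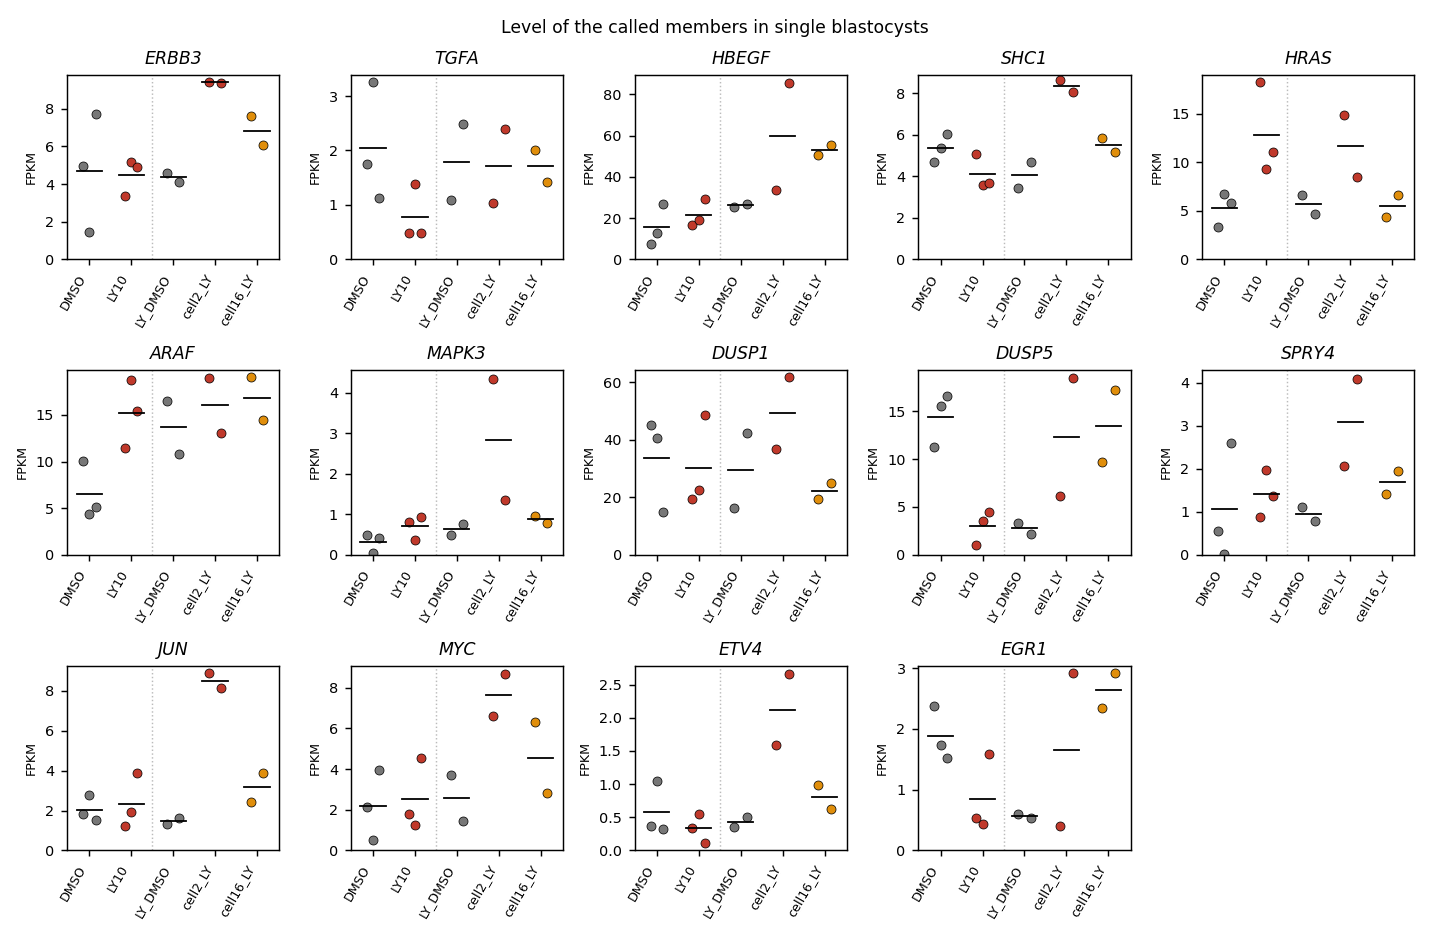
FPKM (vertical axis, from 0) of the 14 members called in any blastocyst comparison, by group (horizontal axis), with a point for each blastocyst and a bar for the group mean; the dotted line separates the 2 experiments. DUSP5 is low in LY10 (1.01 to 4.44 FPKM) and in LY_DMSO (2.21 and 3.33 FPKM), and JUN reaches 8 FPKM only in cell2_LY.

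Blastocysts that had LY from the 2-cell stage in the second experiment carried more transcript of members at several levels of the pathway than their DMSO controls. Higher were the ligand HBEGF, the receptor ERBB3, the adaptor SHC1, the ERK gene MAPK3, the inhibitors DUSP5 and SPRY4, and the transcription factors JUN, ETV4 and MYC. These 9 of 40 tested members are 22.5%, against 8.71% of the 14529 genes tested, and no member was called lower, against 8.34% of all genes. None passed the adjusted threshold, as 0.0138% of genes did, and 12 members had an unadjusted p under 0.05. The groups did not overlap for 20 members (18 higher, 2 lower), or 50%, beside 53.7% of all genes. The median log2 fold change was 0.60 over the members, with 32 positive and 8 negative, and 0.00 over all genes. Trophectoderm markers summed to 4723 and 3916 FPKM in LY_DMSO and to 4958 and 7386 FPKM in cell2_LY, and their part in these calls was not tested.

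JUN, a component of the AP-1 factor, had the largest log2 fold change of these members. It lies on chromosome 3 from 87265962 to 87268009. It was at 1.31 and 1.61 FPKM in LY_DMSO and at 8.88 and 8.12 FPKM in cell2_LY, with group means of 1.461 ± 0.217 and 8.5001 ± 0.537 FPKM (SD, n = 2 each). The log2 fold change of 2.52 ± 0.44 (SE) was 5.73-fold and its adjusted p in limma was 0.0711. ETV4, an ETS factor responsive to FGF and ERK (chromosome 19, 43447252 to 43462786), was at 0.349 and 0.509 FPKM in LY_DMSO and at 1.58 and 2.66 FPKM in cell2_LY. Its log2 fold change was 2.24 ± 0.54 (SE; limma's adjusted p = 0.0812). Both genes stayed past the threshold in all 17 alternatives. For this experiment these include median-of-ratios scaling, which equalled the scaling of the main fit and so could not differ. They also include leaving out a library of the group not compared. MYC, a growth-promoting factor, was at 3.69 and 1.45 FPKM in LY_DMSO and at 6.59 and 8.67 FPKM in cell2_LY, a log2 fold change of 1.70 ± 0.56 (SE; limma's adjusted p = 0.123). It was not called without LY_DMSO replicate 2 (1.03) or cell2_LY replicate 2 (1.498). The related ETV5 was at 0.591 and 1.33 FPKM in LY_DMSO and at 0.983 and 1.26 FPKM in cell2_LY. FOS was at 13.3 and 20.4 FPKM in LY_DMSO and at 14.5 and 45.1 FPKM in cell2_LY, so both overlapped.

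At the top of the pathway, HBEGF (chromosome 7, 51532818 to 51545696) was at 25.3 and 27.0 FPKM in LY_DMSO and at 33.8 and 85.8 FPKM in cell2_LY. The cell2_LY blastocysts were both higher but far apart, and the log2 fold change of 1.04 ± 0.40 (SE; limma's adjusted p = 0.164) was 0.37 without cell2_LY replicate 2, and was also not called without LY_DMSO replicate 1 (0.99) or 2 (1.09). ERBB3 was at 4.60 and 4.13 FPKM in LY_DMSO and at 9.42 and 9.38 FPKM in cell2_LY. With little spread in either group, its log2 fold change was 1.10 ± 0.28 (SE; limma's adjusted p = 0.0838). SHC1, which links receptors to GRB2, was at 3.43 and 4.72 FPKM against 8.65 and 8.05 FPKM in cell2_LY. Its log2 fold change was 1.05 ± 0.29 (SE; limma's adjusted p = 0.0957), and it was 0.82 without LY_DMSO replicate 1 and 0.999, just under the threshold, without cell2_LY replicate 1. ERBB2 and EGFR were not called, with log2 fold changes of 0.96 and 0.44.

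MAPK3, which codes for ERK1, was at 0.495 and 0.768 FPKM in LY_DMSO and at 4.34 and 1.35 FPKM in cell2_LY. Its log2 fold change was 1.92 ± 0.71 (SE; limma's adjusted p = 0.153), and without cell2_LY replicate 1 it was 1.09 and no longer called, nor was it without LY_DMSO replicate 1 (1.62). MAP2K1 and MAP2K2, which code for the MEK kinases, had unadjusted p-values under 0.05 but log2 fold changes of 0.67 and 0.94, below the threshold. HRAS was at 6.68 and 4.65 FPKM in LY_DMSO and at 14.9 and 8.46 FPKM in cell2_LY, with a log2 fold change of 1.00 ± 0.47 (SE) and no call.

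Both inhibitors that were called are themselves ERK-responsive. DUSP5 was at 3.33 and 2.21 FPKM in LY_DMSO and at 6.18 and 18.4 FPKM in cell2_LY, a log2 fold change of 1.96 ± 0.54 (SE; limma's adjusted p = 0.0953). SPRY4, an inhibitor of RAS and RAF activation, was at 1.12 and 0.793 FPKM in LY_DMSO and at 2.07 and 4.09 FPKM in cell2_LY, a log2 fold change of 1.61 ± 0.46 (SE; limma's adjusted p = 0.1000). Both lay higher in each cell2_LY embryo and both lost the call without cell2_LY replicate 2, at 1.18 and 1.12. DUSP6 was at 1.33 and 6.91 FPKM in LY_DMSO and at 3.67 and 17.8 FPKM in cell2_LY and overlapped. Without cell2_LY replicate 1, whose library size stood apart, 12 members were called, all higher, while the calls over all genes went from 2476 to 1576. Without cell2_LY replicate 2, 875 genes passed the adjusted threshold in place of 2, among them JUN, whose adjusted p in limma was 0.0482 (0.0482 to 0.255 over the alternatives), and 8 members were called higher and 1, NRG1, lower. With reads on genes as library size, 13 members were called, all higher, but the median of all genes then moved from 0.00 to 0.24 and the share of all calls that were lower from 48.9% to 26.8%.

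**Figure D2:**
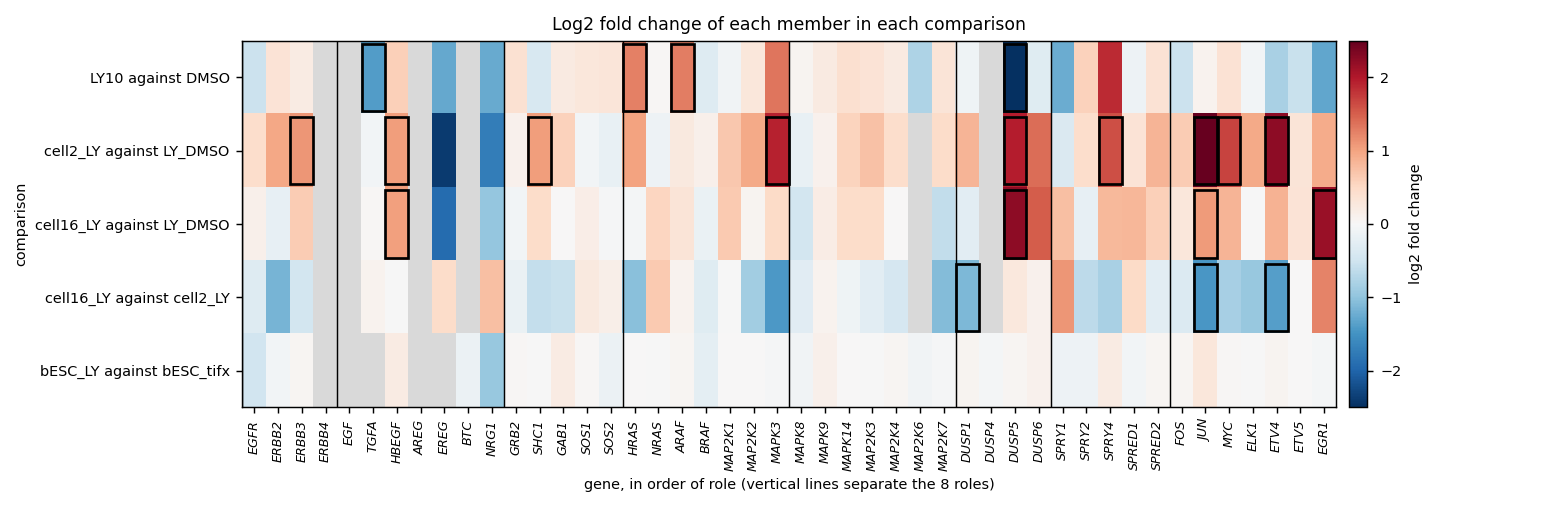
Log2 fold change (colour, red higher and blue lower in the group named first) of the 46 members (columns) in the 5 comparisons (rows), with grey for genes not tested, a black frame for calls and, in the bESC row, the first of the 2 NRG1 models. The row of cell2_LY against LY_DMSO has 9 framed genes, all higher, and the bESC row has none.

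When LY began at the 16-cell stage, 4 of the 40 tested members were higher than in LY_DMSO and none was lower. They were DUSP5, EGR1, JUN and HBEGF. This was 10% of the members, against 3.25% of all genes called higher and 1.97% called lower. No member passed the adjusted threshold, nor did any gene (0.0%), and 5 members had an unadjusted p under 0.05. The groups did not overlap for 20 members (17 higher, 3 lower), or 50%, beside 42.9% of all genes. The median log2 fold change was 0.30 over the members, with 28 positive and 12 negative, and -0.01 over all genes. The LY_DMSO blastocysts are the same as above, so that the comparisons of both start stages share whatever was particular to them. Trophectoderm markers summed to 4994 and 4998 FPKM in cell16_LY, also above both LY_DMSO blastocysts, and their part was not tested.

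DUSP5 was at 9.67 and 17.2 FPKM in cell16_LY, both above the 3.33 and 2.21 FPKM of LY_DMSO. Its log2 fold change of 2.24 ± 0.54 (SE; limma's adjusted p = 0.499) was past the threshold in all 17 alternatives. EGR1, an immediate early zinc finger factor, was at 2.35 and 2.91 FPKM in cell16_LY and at 0.593 and 0.535 FPKM in LY_DMSO, and at 0.399 and 2.91 FPKM in cell2_LY. Its log2 fold change against LY_DMSO was 2.16 ± 0.88 (SE; limma's adjusted p = 0.620). The 2 cell2_LY embryos fell on either side of LY_DMSO for this gene, while both cell16_LY embryos lay above it.

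HBEGF was at 50.9 and 55.4 FPKM in cell16_LY, a log2 fold change of 1.02 ± 0.40 (SE; limma's adjusted p = 0.620). JUN was at 2.44 and 3.88 FPKM, a log2 fold change of 1.06 ± 0.44 (SE; limma's adjusted p = 0.621). Both groups lay fully above LY_DMSO, but these calls were close to the threshold. EGR1 and HBEGF lost the call without any 1 of the 4 blastocysts compared, with log2 fold changes of 2.004 to 2.31 and 0.96 to 1.08. JUN lost it in 8 of 17 alternatives, among them leaving out LY_DMSO replicate 1 (0.92), LY_DMSO replicate 2 (1.21) or cell16_LY replicate 2 (0.73), and the replicate block. DUSP6, at 12.6 and 6.10 FPKM, overlapped with LY_DMSO.

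Between the start stages, JUN, ETV4 and DUSP1 were lower in cell16_LY than in cell2_LY and no member was higher. These 3 of 40 members are 7.5%, against 5.77% of all genes called lower, and 5.58% of all genes were called higher. The paper names MAPK and ErbB signaling among the pathways lower in this contrast of the same blastocysts. The choice of members is therefore not independent of it. No member and no gene (0.0%) passed the adjusted threshold, and 5 members had an unadjusted p under 0.05. The groups did not overlap for 19 members (2 higher, 17 lower), or 47.5%, beside 54.5% of all genes. The median log2 fold change was -0.27 over the members and 0.04 over all genes. With reads on genes as library size these became 5 members, all lower, while the median of all genes moved to -0.18 and the share of all calls that were lower from 50.9% to 75.0%.

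JUN was at 2.44 and 3.88 FPKM in cell16_LY beside 8.88 and 8.12 FPKM in cell2_LY, a log2 fold change of -1.46 ± 0.44 (SE; limma's adjusted p = 0.195). ETV4 was at 0.984 and 0.626 FPKM beside 1.58 and 2.66 FPKM, a log2 fold change of -1.37 ± 0.54 (SE; limma's adjusted p = 0.250). For both genes the cell16_LY embryos lay between LY_DMSO and cell2_LY. DUSP1, a nuclear phosphatase of JNK, p38 and ERK, was at 19.4 and 24.9 FPKM in cell16_LY and at 36.8 and 61.9 FPKM in cell2_LY, while LY_DMSO had 16.5 and 42.5 FPKM. Its log2 fold change was -1.12 ± 0.46 (SE; limma's adjusted p = 0.258). Without cell16_LY replicate 1 all 3 calls were lost, at -1.12 for JUN, -1.69 for ETV4 and -0.94 for DUSP1. ETV4 and DUSP1 were also not called without cell16_LY replicate 2 (-1.05 and -1.30) or cell2_LY replicate 2 (-0.999 and -0.745). Without cell2_LY replicate 1, 5 members were called, all lower, while 6.47% of all genes were called in place of 11.3%. Without cell2_LY replicate 2 it was 9, 6 lower and 3 higher (EGR1, SPRED1 and NRG1), while the calls over all genes went from 1649 to 2910.

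**Figure D3:**
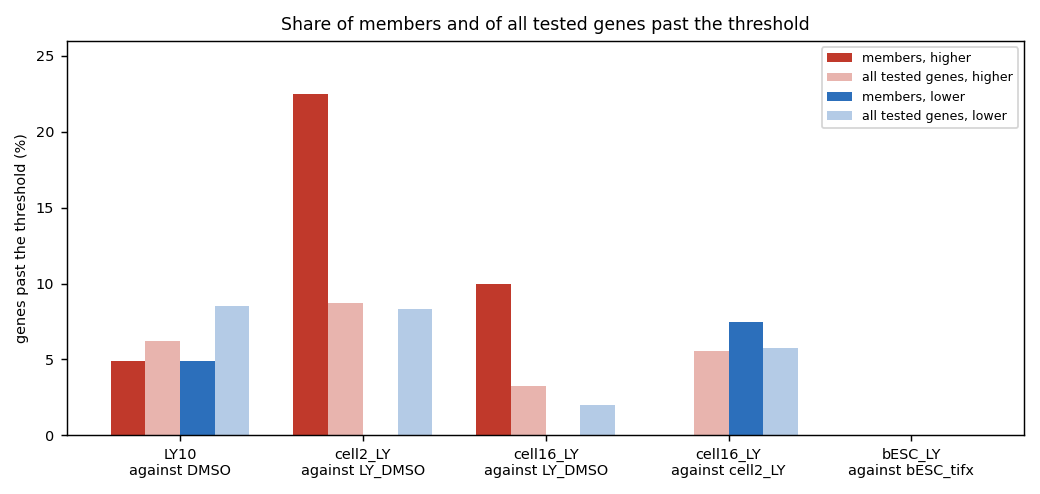
Share of genes past the threshold (vertical axis, %) in the 5 comparisons (horizontal axis), for the members (dark bars) and for all tested genes (light bars), higher in red and lower in blue. The bars of the members exceed those of all genes in the higher direction for cell2_LY (22.5% and 8.71%) and cell16_LY (10% and 3.25%) against LY_DMSO. For LY10 they do not exceed them in either direction.

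LY10 against DMSO and cell2_LY against LY_DMSO both address LY from the 2-cell stage and share no library, but their tables were scaled separately and the difference between them was not tested. Of the 40 members tested in both, 23 had log2 fold changes of the same sign (57.5%) and 17 did not, and among all 13019 genes tested in both the share with the same sign was 47.98%. DUSP5 was called in both, lower in LY10 (log2 fold change -2.48) and higher in cell2_LY (1.96). It was the only member whose groups did not overlap in either experiment and differed in direction, a pattern that 9.78% of all genes tested in both also had. The control levels of DUSP5 were 11.2 to 16.5 FPKM in DMSO and 2.21 to 3.33 FPKM in LY_DMSO. The treated levels were 1.01 to 4.44 FPKM in LY10 and 6.18 to 18.4 FPKM in cell2_LY, so that the controls of each experiment lay near the treated embryos of the other. HRAS was the only member whose groups were apart in the same direction in both, with log2 fold changes of 1.26 and 1.00, the second without a call, and 6.03% of all genes tested in both were apart in the same direction in both. JUN and ETV4, with the largest increases among the members called in cell2_LY, had log2 fold changes of 0.09 and -0.80 in LY10. ARAF and TGFA, called in LY10, were not called in cell2_LY, and their groups overlapped there. ARAF was at 16.5 and 10.8 FPKM in LY_DMSO and at 18.96 and 13.1 FPKM in cell2_LY. In LY10 it was at 11.5 to 18.8 FPKM. TGFA was at 1.098 and 2.49 FPKM in LY_DMSO and at 1.04 and 2.39 FPKM in cell2_LY.

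**Figure D4:**
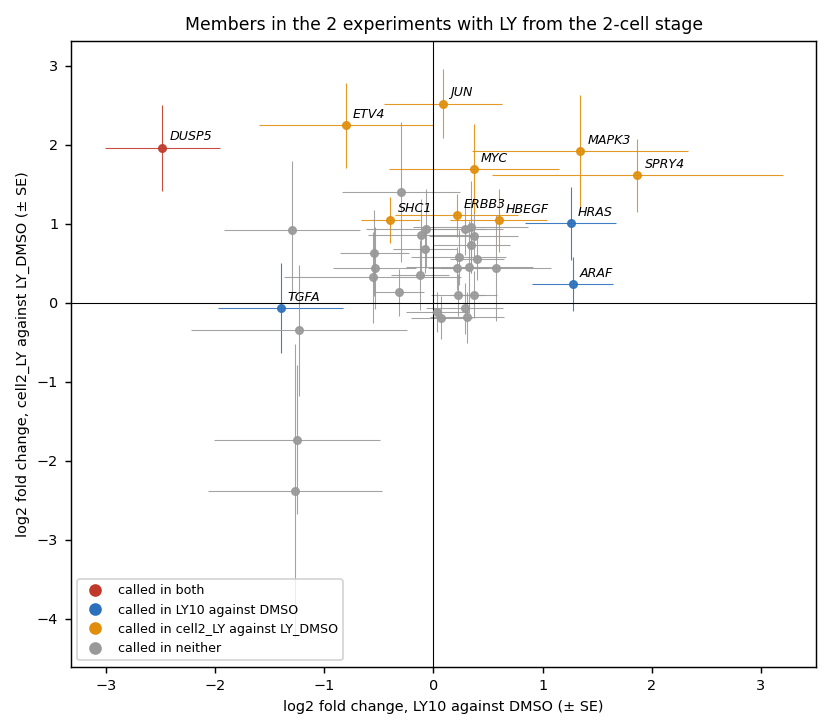
Log2 fold change of the 40 members tested in both experiments, LY10 against DMSO on the horizontal axis and cell2_LY against LY_DMSO on the vertical axis, with bars of 1 standard error and colour for the comparison in which a gene was called. DUSP5 lies alone at the upper left (-2.48 and 1.96), and JUN (0.09 and 2.52) lies near the vertical zero line.

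In bESCs, no member was called between LY and the TIFX control. Of the 42 entries tested, 0 were called in either direction, as were 0.0375% of the 16012 genes in each direction. None passed the adjusted threshold (0.0% of all genes), and 0 members, against 16 of all genes, had an unadjusted p under 0.05. The same count of 0 was found with voom weights and under every other alternative. The groups did not overlap for 4 members (SPRY4 higher, EGFR, MAPK8 and DUSP4 lower), or 9.52%, beside 14.2% of all genes. Log2 fold changes ran from -0.95 (an NRG1 model) to 0.29 (JUN). For DUSP5 it was 0.04 with a 95% confidence interval of -0.51 to 0.60, for HRAS 0.01 (-0.50 to 0.52) and for DUSP6 0.10 (-0.53 to 0.73). These intervals did not reach a change past the threshold. They measure only the spread between libraries that may not be separate cultures, so they cannot exclude such a change. For EGR1 the interval was -2.64 to 2.55 and for FOS -2.64 to 2.74, and such a change was not detectable in this fit. The fit did not pair the libraries by number.

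The width of these last intervals goes with the library number in the labels, which do not say what it marks. FOS was at 3.4998 and 3.32 FPKM in the control and LY libraries numbered 2 and at 13.8 and 15.6 FPKM in those numbered 3. EGR1 was at 3.07 and 2.56 FPKM in number 2 and at 10.8 and 12.2 FPKM in number 3. The libraries of number 3 thus had 3.96 and 4.70 times as much FOS and 3.52 and 4.76 times as much EGR1, whereas LY and control of the same number differed by 0.83 to 1.13 times. Together with the ligand BTC, which was lower in number 3, these were 3 of the 42 entries (7.14%) beyond 2-fold in 1 direction between the numbers in both media, against 8.99% of the 16012 genes tested, so the members' share was near that of all genes. Between LY and control, 0 entries were beyond 2-fold in 1 direction in both numbers, against 0.462% of all genes. Trophectoderm markers summed to 295 and 254 FPKM in number 2 and to 108 and 94.3 FPKM in number 3. Hypoblast markers summed to 16.2 and 15.3 FPKM in number 2 and to 35.9 and 36.9 FPKM in number 3. The cumulus cell list summed to 22.2 and 19.6 FPKM in number 2 and to 66.1 and 58.5 FPKM in number 3, with its markers CYP19A1 and FSHR at 0 reads in all 4 libraries. The part of these markers in the difference was not tested.

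The bESCs and the blastocysts had the pathway in different forms, as far as separately scaled tables with different kits and gene models allow a view. In the control bESCs, 29 of 40 members with a level of at least 1 FPKM in some library and 1 entry per table lay above all 5 control blastocysts (72.5%, against 55.7% of the 12660 such genes). Below all of them lay 2 members, HBEGF and TGFA (5%, against 20.4% of such genes). FPKM divides by gene length, which differed between the tables. The blastocyst and bESC lengths were 19146 and 2404 bases for BRAF, 5579 and 2026 for SPRY4 and 4525 and 1717 for ETV4. Others, such as HRAS (1147 and 2043 bases), were longer in the bESC table. The part of gene length in these counts was not tested. DUSP4 was at 55.7 and 57.6 FPKM in control bESCs and at 0 to 0.0838 FPKM in control blastocysts. ETV5 was at 52.0 and 52.3 FPKM beside 0.255 to 2.38 FPKM, ETV4 at 26.5 and 40.3 FPKM beside 0.318 to 1.05 FPKM, and SPRY4 at 30.1 and 32.1 FPKM beside 0.0167 to 2.60 FPKM. All 4 genes are known to respond to ERK, and they were picked for their large differences. Of the other ERK-responsive genes, DUSP6, EGR1, SPRY1 and SPRY2 also lay above all control blastocysts, whereas FOS, MYC and DUSP5 overlapped with them. Whether ERK activity differed between bESCs and blastocysts was not tested. HBEGF was at 2.23 and 2.74 FPKM beside 7.59 to 27.0 FPKM, and DUSP5 at 3.95 and 4.19 FPKM overlapped with blastocysts. MAPK3 was at 23.6 and 29.3 FPKM beside 0.0422 to 0.768 FPKM.

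**Figure D5:**
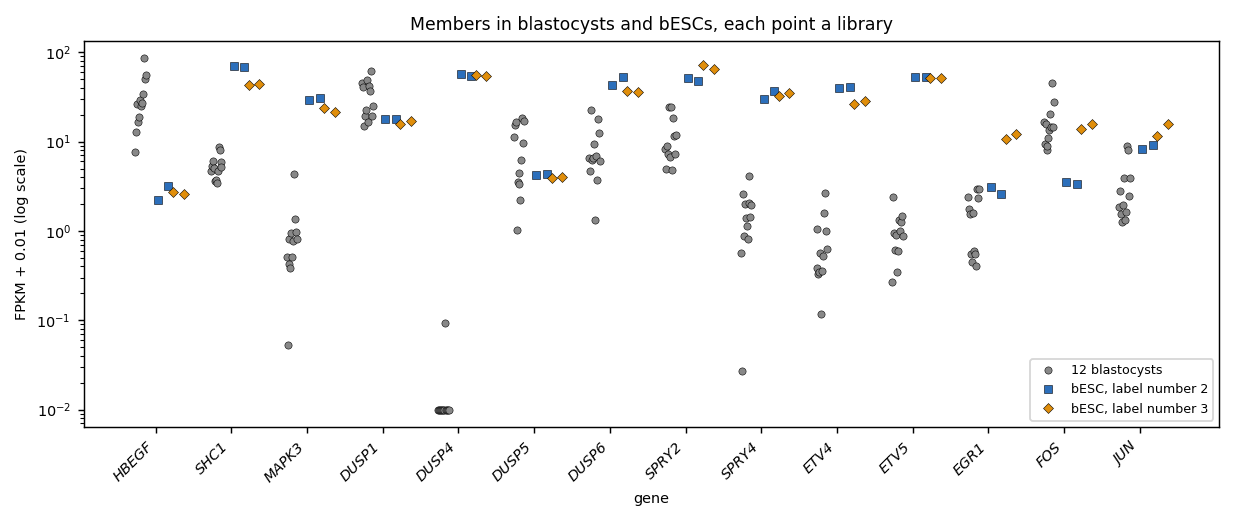
FPKM with 0.01 added (vertical axis, log scale) of 14 members in the 12 blastocysts (grey) and in the bESC libraries with label number 2 (blue) and 3 (orange), with a point for each library and LY and control libraries together. DUSP4 lies near 55 FPKM in all bESC libraries and at 0 in 11 of the 12 blastocysts, and FOS and EGR1 separate by label number.

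A further 68 genes of these pathways were counted beside the members. In LY10 against DMSO, 3 of the 52 tested were higher (GAB2, MAP3K4 and MKNK1) and 1 was lower (FOSL1), 5.77% and 1.92% beside 6.2% and 8.51% of all genes. In cell16_LY against LY_DMSO 4 of 57 were higher (ELK3, CBL, MAP2K5 and MAPKAPK3), 7.02% beside 3.25% of all genes, and none lower. In cell2_LY against LY_DMSO 13 of 57 were higher and 3 lower, 22.8% and 5.26% beside 8.71% and 8.34% of all genes. The higher ones included the AP-1 and ATF genes FOSB (log2 fold change 3.39), FOSL1 (1.58) and ATF3 (1.21), the ubiquitin ligase gene CBL (1.96), the kinases MAP2K5 (1.72) and MAPK7 (1.76) of the ERK5 branch and the phosphatases DUSP8 (1.73), DUSP3 (1.28) and DUSP16 (1.08). The lower ones were DUSP10 (-2.63), RAP1B (-1.23) and MKNK1 (-1.06). The largest of these changes rest on low levels. FOSB had means of 0.435 FPKM in cell2_LY and 0.0403 FPKM in LY_DMSO, with 0 reads in LY_DMSO replicate 2 and an SE of 1.36. DUSP10 had means of 0.127 and 0.918 FPKM in the same order. MKNK1, a kinase activated by ERK and p38, was higher in LY10 (log2 fold change 1.60) and lower in cell2_LY, and FOSL1 was lower in LY10 (-1.64) and higher in cell2_LY. Between the start stages 5 of 57 were higher and 5 lower in cell16_LY, 8.77% each beside 5.58% and 5.77% of all genes. RAP1B, CBLB, RPS6KA3, SHOC2 and DUSP10 were higher, and JUNB, MAPK7, MKNK2, DUSP8 and GRB7 were lower. In bESCs 0 of the 65 tested were called. None of these calls passed the adjusted threshold, and the smallest adjusted p in limma was 0.0782, for CBL in cell2_LY.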

How the data were processed

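RNA sequencing of 12 single bovine blastocysts (SMART-Seq) and 4 bESC libraries (column-extracted RNA) was analysed. The deposited values are FPKM, which the authors computed from reads per gene and gene length. The submitters' processing notes name HISAT2 2.0.5, StringTie 1.3.3b, featureCounts 1.5.0-p3 and DESeq2 1.20.0, while the paper's methods also name STAR. The genome build is not given in the sources used here. The authors' fold changes and p-values in the same tables were not used. FPKM times gene length fell on whole multiples of 1 read, within 0.02 reads, for 100% of the values, which gave the reads and the library size behind each value. That library size equalled median-of-ratios scaling in the second blastocyst table.

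Normalized counts are these reads over the recovered library size, brought to the geometric mean library size within each table. The limma 3.58.1 fit (R 4.3.3) used log2(normalized count + 1) and a variance trend, for genes whose mean was 10 or more. A fold change on this scale is understated for low genes. The 3 groups of the second table shared 1 fit. The study's own count test was not used here. A call needed p below 0.05 before adjustment and a log2 fold change beyond 1 in either direction, and Benjamini-Hochberg adjustment ran over all tested genes. The fits were tested on simulated data. Groups came from the sample titles. The precision is limited by 2 or 3 libraries a group, and counting limits cover counting error only. The members and the lists were chosen with earlier results of these data known. Every called member is named with its level in each sample of the comparison in which it was called. The others were counted, and some were named with levels or ranges. Of these, some were a few of the highest per role. Those set beside a called gene were chosen after their values were seen. So were those of the bESC library number and those of bESCs beside blastocysts. The alternatives changed the pseudocount (0.5 or 5), the filter (none, or a mean of 50), the scaling, the weights, the block and the libraries. Promoter sequences were not analysed here.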

Additional observations from a re-analysis of the deposited data

Results flagged for a closer look

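DUSP1, JUN and ETV4 were singled out because their levels after LY from the 16-cell stage differed from those after LY from the 2-cell stage in the direct contrast of both, with log2 fold changes of -1.12, -1.46 and -1.37. The adjusted p-values in limma were 0.258, 0.195 and 0.250, so none holds after adjustment over all genes, and each group has 2 blastocysts. DUSP5 was singled out because every LY10 blastocyst lay below its controls (log2 fold change -2.48) while every cell2_LY blastocyst lay above its own (1.96). The difference between these experiments was not tested.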

How the results depend on the processing

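No called member reversed its direction in the alternatives run. In the second experiment, median-of-ratios scaling was the same as the main fit and could not change a call. Of the 20 calls, 5 were kept in each alternative (DUSP5 and ARAF in LY10, DUSP5 in cell16_LY, JUN and ETV4 in cell2_LY) and 15 were lost in at least 1. On log2(FPKM + 1), the count for cell16_LY against LY_DMSO was 2 in place of 4 and that for cell16_LY against cell2_LY 1 in place of 3. The latter was 5 with only the 2 groups compared and 5 with reads on genes as library size. Leaving out 1 library at a time, the counts ran from 2 to 6 for LY10, from 1 to 4 for cell16_LY against LY_DMSO, from 8 to 12 for cell2_LY against LY_DMSO and from 0 to 9 for cell16_LY against cell2_LY, where the 9, without cell2_LY replicate 2, were 6 lower and 3 higher. Where this left 1 library in a group, it was assumed to vary like the others. Over all genes, the number tested changed with the filter and with FPKM, so shares of those tested stand beside the calls. For LY10, 1350 genes (13.8%) were called with a mean of at least 50, in place of 2097 (14.7%). For cell16_LY against LY_DMSO the calls were 1238 without a filter (4.8%) and 454 on log2(FPKM + 1) (3.44%), in place of 758 (5.22%). On log2(FPKM + 1) they were 1628 (12.3%) in place of 2476 (17%) for cell2_LY against LY_DMSO. For cell16_LY against cell2_LY they were 958 (7.26%) in place of 1649 (11.3%). In bESCs the calls were 158 without a filter (0.754%) and 2 with a mean of at least 50 (0.0149%), in place of 12 (0.0749%). On log2(FPKM + 1) they were 22 (0.146%). With 1 library left out, they ran from 1327 to 3449, 350 to 1362, 1576 to 3404, 816 to 2910 and 29 to 58 in the same order. The cause of these differences was not tested.

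The replicate numbers were not taken as pairs, since no label ties them. The correlations of same-numbered deviations were -0.117, 0.168 and -0.0997 in the first experiment, 0.121, -0.232 and -0.133 in the second and 0.789 in the bESCs, over 2 pairs each in the last 2. With a replicate block, 4, 3, 9, 3 and 0 members were called for LY10, cell16_LY and cell2_LY against their controls, cell16_LY against cell2_LY and bESC_LY. In bESCs the block raised the calls over all genes from 12 to 146 but added no member. With it, 116 genes passed the adjusted threshold in place of 0, and no member was among them.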
